A study of Mus musculus with 6 samples.

Results

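Collagens are the 44 genes of the deposited table, out of 55357, whose symbol has the form Col, a type number, a and a chain number. Their expression was compared between astrocytes that had been transfected with BRAF KE and astrocytes that had not, and 33 of the 44 reached the mean normalized count of 10 over the 6 cultures that was required for a test. The data were RNA-seq, from poly(A)-selected stranded libraries, of cultured cortical astrocytes from late-embryonic C57BL/6 mice. In the KE group, 3 cultures received a plasmid that expresses FLAG-tagged BRAF K499E, a gain-of-function RASopathy variant, from the CMV promoter. In the NT group, 3 cultures were non-transfected and their genotype is labelled naive. The treatment text in the NT labels repeats that of the KE labels, and the groups were taken from the titles and the treatment tag, which give these cultures as non-transfected. Cells were lysed 48 h after transfection. No cultures that received an empty plasmid or wild-type BRAF were analysed here, so that BRAF KE and the transfection itself cannot be told apart. Neither the labels nor the methods say whether the 3 cultures of a group came from separate animals or preparations, and the P values measure the spread between these cultures.

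Collagens are secreted or membrane-bound proteins in which 3 alpha chains wind into a triple helix. Fibrillar collagens assemble into the fibers that carry tension in connective tissue, type IV collagens form the sheet-like network of basement membranes, and the remaining types decorate fibrils, form beaded filaments or span the plasma membrane. In the brain, fibrillar collagen is largely restricted to meninges and vessel walls, whereas type IV collagen lines the vascular and pial basement membranes on which astrocyte endfeet rest. Astrocytes in culture also deposit extracellular matrix.

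Braf was listed at 34933 to 40978 normalized counts in the KE cultures and at 811 to 946 in the NT cultures, as the labels require. The astrocyte markers Gfap, Aqp4, Slc1a3 and 7 others were all above the test's minimum. Approximate sequencing depth lay between 24489700 and 34146300 reads per culture and was lowest in KE replicate 2, so that low-count genes are least precise there. Microglial markers stood apart most between the groups. All 10 were lower in BRAF KE–transfected astrocytes, as were 26% of all tested genes, and their summed normalized count was 4233 to 5580 in KE and 29224 to 33941 in NT. In these bulk samples, fewer cells of a type and less RNA per cell cannot be told apart.

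Collagen genes changed in both directions. Of the 33 tested, 9 were higher and 6 were lower in BRAF KE–transfected astrocytes at an adjusted P value under 0.05 (limma with Benjamini-Hochberg adjustment over 15280 genes). These are 27.3% and 18.2% of the tested collagens, where 25.3% and 26% of all tested genes were higher and lower, and 45.5% against 51.3% in either direction. KE and NT values did not overlap for 14 of the 33 collagens, or 42.4%, against 59.9% of all tested genes. The shares of collagens called were thus close to or under those of all genes. The median log2FC of the tested collagens was -0.12, against 0.00 for all tested genes. Its sign was not stable, since it was 0.12 without KE replicate 1 or with a minimum mean of 50, and 0.03 without NT replicate 2.

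Calls were counted by assembly type, and a difference between types was not tested. Of 5 tested type IV collagens, 3 were higher and 0 lower, and the call of 1 of the 3, Col4a2, was lost in 6 of the 14 alternatives. Of 10 tested fibrillar collagens, 2 (20%) were higher and 3 (30%) were lower, and of 18 tested collagens of other types, 4 (22.2%) were higher and 3 (16.7%) were lower. The shares of the latter groups lie near the 25.3% and 26% of all tested genes. Col17a1, 1 of the 9 higher genes, reached the minimum for a test only through the KE cultures. Col4a6, Col23a1, Col5a3, Col16a1, Col6a2 and Col17a1 were the higher genes, and Col12a1, Col11a1, Col14a1 and Col26a1 the lower genes, whose calls held under every alternative setting that tested them, as did that of Col4a1. The calls of Col4a2, Col1a2, Col3a1 and Col2a1 did not.

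**Figure D1:**
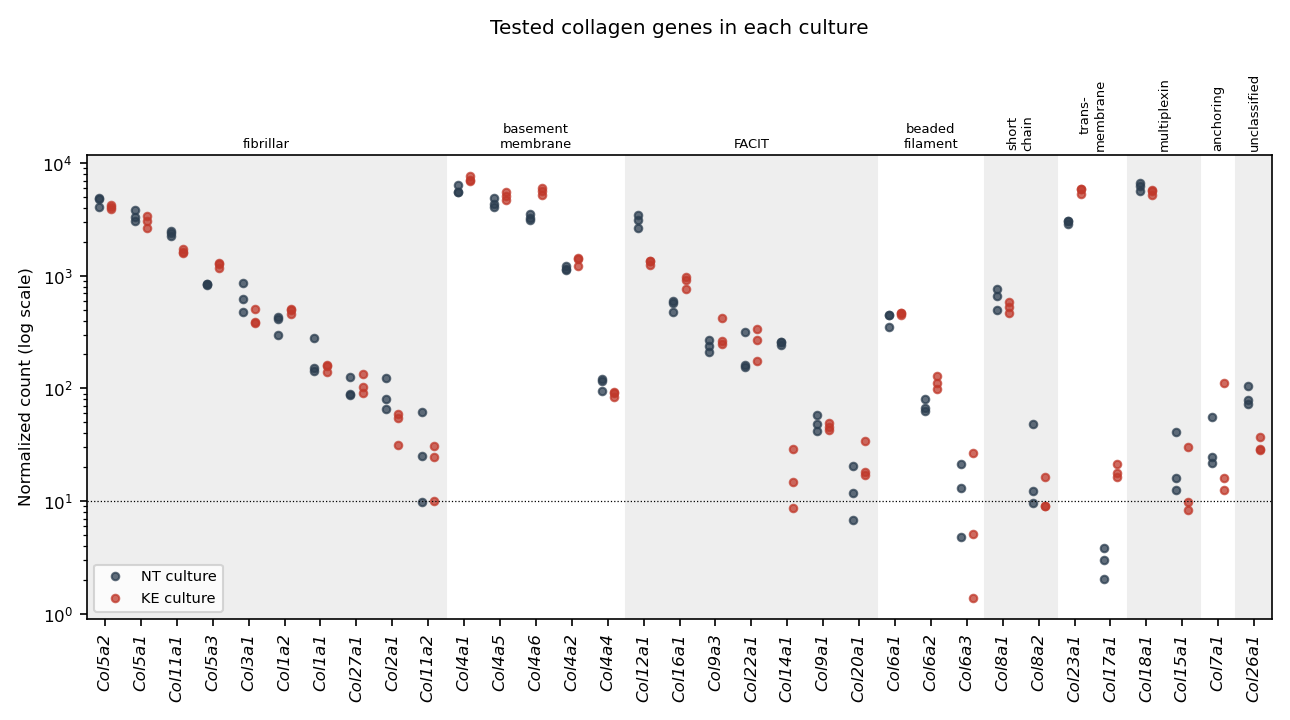
Normalized count on a log axis of each of the 33 tested collagens, 1 point per culture, for 3 NT and 3 KE cultures, with genes grouped by assembly type and ordered by level within a type. The dotted line marks 10, the minimum that the mean of a gene over the cultures had to reach. Col12a1 and Col14a1 lie lower, and Col23a1, Col4a6 and Col17a1 higher, in all KE than in all NT cultures.

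**Figure D2:**
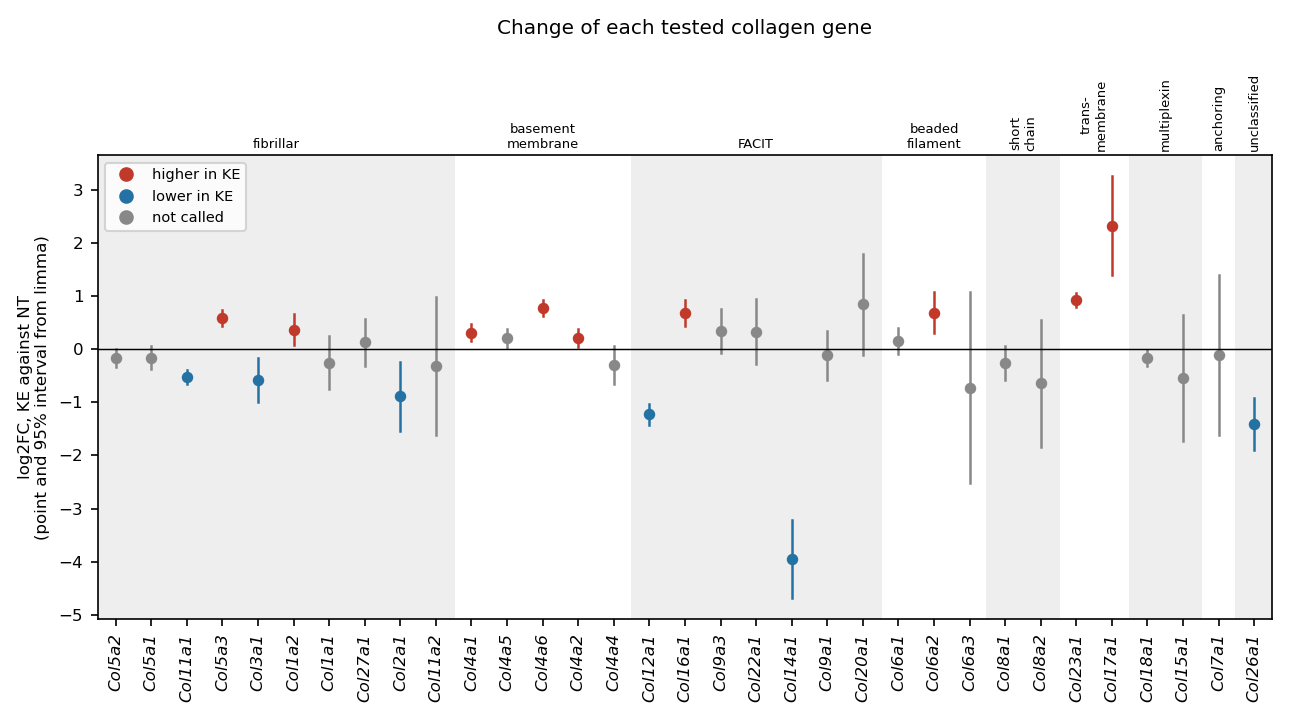
Log2FC of each tested collagen, KE minus NT on the log2(normalized count + 1) scale, with its 95% confidence interval from limma, by assembly type. Red and blue points are genes called higher and lower at an adjusted P value under 0.05, and grey points were not called. The 9 higher and 6 lower genes span log2FC 2.32 for Col17a1 to -3.94 for Col14a1. Col17a1 reached the minimum for a test only through the KE cultures.

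The sequences upstream of 6 collagens are shown as a description, and the expression results below do not rest on them. Col4a6, Col23a1, Col17a1, Col12a1 and Col14a1 were among the genes with large changes without overlap between groups. Of these, Col17a1 reached the minimum for a test only through the KE cultures. Col4a5 starts next to Col4a6 on the other strand. Each is the 250 bases before the annotated start of the canonical transcript, 5′ to 3′ on the gene's strand, read from GRCm39 with Gencode vM39 starts, and none of the 6 windows overlaps an annotated exon. The windows are chrX:140257073-140257322 on the minus strand for Col4a6, chrX:140258104-140258353 on the plus strand for Col4a5, chr11:51180316-51180565 on the plus strand for Col23a1, chr19:47680534-47680783 on the minus strand for Col17a1, chr9:79626136-79626385 on the minus strand for Col12a1 and chr15:55170890-55171139 on the plus strand for Col14a1. Capitals mark matches to the GC box GGGCGG, the CCAAT box CCAAT, the TATA box TATAAA, the AP-1 motif TGANTCA or the interferon-stimulated response element core, which is GAAA followed by 2 bases of any kind and GAAA, each searched on both strands.
Col4a6: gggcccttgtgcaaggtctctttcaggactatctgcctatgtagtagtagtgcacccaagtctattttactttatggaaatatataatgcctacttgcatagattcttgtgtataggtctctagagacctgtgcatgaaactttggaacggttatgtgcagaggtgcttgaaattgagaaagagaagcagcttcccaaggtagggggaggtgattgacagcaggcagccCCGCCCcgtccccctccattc
Col4a5: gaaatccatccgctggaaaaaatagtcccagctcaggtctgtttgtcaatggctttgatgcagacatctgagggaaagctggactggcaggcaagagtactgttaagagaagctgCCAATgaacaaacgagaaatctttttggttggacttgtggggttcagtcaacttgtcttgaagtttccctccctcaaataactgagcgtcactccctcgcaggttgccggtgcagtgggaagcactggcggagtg
Col23a1: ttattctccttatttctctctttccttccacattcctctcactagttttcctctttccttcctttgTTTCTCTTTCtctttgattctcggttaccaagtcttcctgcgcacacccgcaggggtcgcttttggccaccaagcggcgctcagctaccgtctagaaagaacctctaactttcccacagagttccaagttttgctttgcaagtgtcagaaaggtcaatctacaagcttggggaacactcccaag
Col17a1: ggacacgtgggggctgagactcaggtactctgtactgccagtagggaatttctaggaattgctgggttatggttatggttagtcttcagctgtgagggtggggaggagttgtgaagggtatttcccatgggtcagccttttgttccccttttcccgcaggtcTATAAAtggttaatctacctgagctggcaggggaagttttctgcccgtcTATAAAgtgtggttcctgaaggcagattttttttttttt
Col12a1: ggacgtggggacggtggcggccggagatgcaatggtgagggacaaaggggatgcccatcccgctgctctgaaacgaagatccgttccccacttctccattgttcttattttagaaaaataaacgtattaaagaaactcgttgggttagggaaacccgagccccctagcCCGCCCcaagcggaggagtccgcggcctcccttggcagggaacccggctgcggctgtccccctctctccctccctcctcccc
Col14a1: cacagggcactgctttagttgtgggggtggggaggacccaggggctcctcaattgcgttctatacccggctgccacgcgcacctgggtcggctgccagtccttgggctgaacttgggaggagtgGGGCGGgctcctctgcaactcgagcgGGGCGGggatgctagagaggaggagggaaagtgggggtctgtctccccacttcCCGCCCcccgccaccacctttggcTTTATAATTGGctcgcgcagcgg
In these windows Col4a6 and Col12a1 have 1 GC box match each, Col4a5 has 1 CCAAT match, Col17a1 has 2 TATA matches and Col23a1 has 1 response element match. Col14a1 has 3 GC box matches, and its TATA and CCAAT matches lie directly next to each other. No matches overlap in these 6 windows. The window of Col26a1, which also changed without overlap between groups (log2FC -1.41), is not shown and has no match to any of these motifs. Over the 44 collagens, a GC box was found in 21 windows (47.7%, against 36.3% of 21770 annotated gene starts), CCAAT in 15 (34.1% against 36.5%), TATAAA in 7 (15.9% against 11.9%), the response element core in 1 (2.27% against 3.32%) and the AP-1 letters in 0 (against 6.17%). The median GC content was 56.4% in the collagen windows and 53.2% in all windows, and the motif shares were not adjusted for it. A match is a description of the letters and not evidence of binding.

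Type IV collagens form the basement membrane network from trimers of 2 Col4a1 chains with 1 Col4a2 chain, or of the Col4a3 to Col4a6 chains in tissue-specific trimers. Col4a6 showed the largest change of the type. It was measured at 5218, 5685 and 5976 normalized counts in KE replicates 1 to 3, and at 3102, 3280.1 and 3525 in NT replicates 1 to 3. All KE cultures were above all NT cultures. The means were 5626 ± 382 and 3302 ± 212 (SD, n = 3 each), a log2FC of 0.77 (SE 0.07, adjusted P = 4.58e-06, limma).

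Col4a1, which had the highest mean normalized count over the 6 cultures, though not within NT, was at 7095, 6993 and 7616 in KE and at 5561, 6453 and 5538 in NT. The groups did not overlap, although NT replicate 2 lay close to the KE cultures. Its log2FC was 0.31 (SE 0.07, adjusted P = 0.00343, limma). Col4a2, its partner in the trimer, was at 1219, 1400.2 and 1439 in KE and at 1126, 1232 and 1149 in NT. The lowest KE culture lay under the highest NT culture. The log2FC of Col4a2 was 0.21 (SE 0.08, adjusted P = 0.0453, limma), and without KE replicate 2, KE replicate 3, NT replicate 1 or NT replicate 3 its adjusted P value was 0.117, 0.151, 0.130 or 0.105. It was also not called without the variance trend (0.0931) or without the filter on low genes (0.0566).

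Col4a5, which pairs with Col4a6 in smooth muscle and other basement membranes, was at 4684, 5068 and 5513 in KE and at 4329, 4068 and 4876 in NT. Only KE replicate 1 fell within the NT range. Its log2FC of 0.20 (95% CI, 0.03–0.38) had an adjusted P value of 0.0523 with limma. Without KE replicate 1 or NT replicate 3 the adjusted P value was 0.0317 or 0.0147, and with a minimum mean of 50 it was 0.0491. Col4a4, a chain of the glomerular network, was at 84.1, 91.3 and 92.4 in KE and at 116, 94.3 and 121 in NT. All KE values were lower, but the log2FC of -0.30 (95% CI, -0.65 to 0.06) did not pass the threshold (adjusted P = 0.145, limma). Col4a3 was listed at 1.81 to 13.8 in KE and 6.67 to 8.90 in NT, under the minimum for a test.

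The type IV genes lie as head-to-head neighbours in GRCm39. Col4a6 (chrX:139948399-140257072, minus strand) and Col4a5 (chrX:140258354-140472231, plus strand) start 1282 bases apart. Their log2FC values were 0.77 and 0.20, and the 95% confidence intervals, 0.62 to 0.92 and 0.03 to 0.38, did not overlap. The ratio of Col4a6 to Col4a5 per kilobase of transcript, a comparison that was added after their values were seen, was 1.07 to 1.11 in KE and 0.708 to 0.796 in NT. Col4a6 was thus the higher of both in every KE culture and the lower in every NT culture at these transcript lengths. Col4a1 (chr8:11248423-11362826, minus strand) and Col4a2 (chr8:11362471-11499287, plus strand) overlap by 356 bases, and Col4a3 and Col4a4 on chromosome 1 by 159 bases. The library was stranded, but the strand setting of the counting is not given in the sources used here, and without it reads in the shared bases cannot be told apart. The ratio of Col4a1 to Col4a2 per kilobase ranged from 5.09 to 5.93 in KE and from 4.92 to 5.34 in NT, which overlap.

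Among the fibrillar collagens, Col5a3 was higher and Col11a1 was lower in BRAF KE–transfected astrocytes. Col5a3, a chain of type V collagen, was at 1179, 1294 and 1272 normalized counts in KE and at 839.8, 836 and 819.5 in NT. The groups were far apart relative to their spread. The log2FC was 0.58 (SE 0.07, adjusted P = 3.65e-05, limma). Col11a1, a type XI chain of the same fibril-nucleating branch, was at 1612, 1601 and 1733 in KE and at 2386, 2469.9 and 2259 in NT. Every KE culture was lower. The log2FC was -0.52 (SE 0.06, adjusted P = 4.55e-05, limma).

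The abundant type V chains were not called. Col5a2, the most abundant fibrillar collagen, was at 3937, 4046 and 4219 in KE and at 4061, 4773 and 4916 in NT, with a log2FC of -0.17 (95% CI, -0.33 to -0.0046; adjusted P = 0.0799, limma). KE replicate 3 lay above NT replicate 1, and without NT replicate 1 the adjusted P value was 0.00836. Quantile normalization gave 0.0486. Col5a1, the chain that sets fibril diameter, was at 2667, 3412 and 3049.7 in KE and at 3049, 3822 and 3323 in NT. The groups overlapped, with a log2FC of -0.16 (95% CI, -0.38 to 0.06; adjusted P = 0.200, limma).

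In type I collagen, the main fibrillar collagen of skin and bone, Col1a2 was called and Col1a1 was not. A difference between these chains was not tested. Col1a2 was at 495, 455 and 508 in KE and at 301, 431 and 409.7 in NT. All KE cultures were higher, and NT replicate 1 was the lowest. The log2FC was 0.37 (SE 0.13, adjusted P = 0.0367, limma). Without NT replicate 1 it was 0.21 (adjusted P = 0.122), and the adjusted P value was 0.0972 without KE replicate 1, 0.110 without KE replicate 3 and 0.0878 without the variance trend. Col1a1 was at 158, 161 and 139 in KE and at 142, 281 and 151 in NT. NT replicate 2 stood above the other 5 cultures, and the log2FC of -0.25 (95% CI, -0.75 to 0.24) was not called (adjusted P = 0.369, limma). The ratio of Col1a1 to Col1a2 per kilobase was 0.248 to 0.320 in KE and 0.334 to 0.588 in NT, which do not overlap. Its size depends on the transcript length used, since the NT mean was 0.450 with the canonical transcripts and 0.960 with all annotated exons.

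Col3a1, which copolymerizes with type I in vessel walls, was at 508, 384 and 389 in KE and at 623, 870.3 and 479 in NT. KE replicate 1 lay above NT replicate 3, so that the groups overlapped. The log2FC was -0.59 (SE 0.19, adjusted P = 0.0220, limma). Its adjusted P value was 0.0775 without KE replicate 2, 0.0819 without KE replicate 3, 0.0537 without NT replicate 1 and 0.0759 without NT replicate 2, where the log2FC was -0.36, and it was 0.0887 without the variance trend. Col2a1, the cartilage collagen, was at 31.4 to 59.8 in KE and 66.0 to 125 in NT, without overlap, and had a log2FC of -0.89 (SE 0.29, adjusted P = 0.0247, limma). Its adjusted P value was 0.0979 without KE replicate 1, 0.0940 without NT replicate 3, 0.0554 with quantile normalization and 0.0669 without the variance trend.

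Of the other fibrillar genes, Col27a1 was at 91.9, 133 and 103 in KE and at 126, 86.6 and 88.7 in NT. The groups overlapped (log2FC 0.12; 95% CI, -0.32 to 0.57; adjusted P = 0.629, limma). Col11a2, a type XI chain, ranged from 9.79 to 61.8, both in NT cultures, and was not called. Col24a1 was at 1.91 to 5.43 over all cultures and was not tested.

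FACIT collagens are fibril-associated chains with interrupted triple helices, which lie on the surface of fibrils and do not form fibers themselves. Col14a1, which regulates fibril growth, had the largest change of any tested collagen. It was at 8.69, 28.9 and 14.7 normalized counts in KE and at 261, 259 and 243 in NT. The NT cultures were tightly grouped and every KE culture was far lower. The log2FC was -3.94 (SE 0.33, adjusted P = 2.98e-06, limma), or 15.4-fold lower on the log2(normalized count + 1) scale.

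Col12a1, the most abundant FACIT gene, was at 1237, 1344 and 1363 in KE and at 2655, 3156 and 3456 in NT. Every KE culture was lower. The log2FC was -1.22 (SE 0.09, adjusted P = 1.07e-06, limma). Col16a1, a FACIT chain that binds integrins, went the other way. It was at 761, 971 and 910.4 in KE and at 598, 480.0 and 573 in NT, without overlap, and the log2FC was 0.68 (SE 0.11, adjusted P = 0.000463, limma). The summed FACIT count was 2669 to 3013 in KE and 4034 to 4707 in NT.

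The remaining tested FACIT genes were not called. Col9a3, a type IX chain of cartilage fibrils, was at 247, 421 and 264 in KE and at 271, 238 and 210.5 in NT, with a log2FC of 0.34 (95% CI, -0.08 to 0.75; adjusted P = 0.156, limma). KE replicate 2 was the high culture. Col22a1, found at tissue junctions such as that of muscle and tendon, was at 333, 176 and 268 in KE and at 162, 314 and 156 in NT, with a log2FC of 0.32 (95% CI, -0.29 to 0.94; adjusted P = 0.351, limma). In each group 1 culture lay on the other group's side, and without NT replicate 2 the adjusted P value was 0.0407 at a log2FC of 0.65. Col9a1 ranged from 42.4 to 48.9 in KE and from 42.2 to 58.1 in NT. Col20a1 ranged from 16.9 to 34.3 in KE and from 6.85 to 20.3 in NT, with a log2FC of 0.84 (95% CI, -0.11 to 1.80; adjusted P = 0.127, limma), and was called without NT replicate 1 (log2FC 1.21, adjusted P = 0.0475).

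Of the transmembrane collagens, Col23a1 and Col17a1 were tested. These collagens are anchored in the plasma membrane and can be shed. Col23a1, a transmembrane collagen that binds integrins, was at 5351, 5847 and 5930.1 in KE and at 3055, 2907 and 3091 in NT. Every KE culture was higher. The means were 5709 ± 313 and 3018 ± 97.4 (SD, n = 3 each), and the log2FC was 0.92 (SE 0.06, adjusted P = 3.87e-07, limma). Col17a1, a component of epithelial hemidesmosomes, was at 17.9, 21.3 and 16.4 in KE and at 2.99, 2.05 and 3.84 in NT. Every KE culture was higher, but Col17a1 reached the minimum for a test only through the KE cultures and rests on few reads. The log2FC was 2.32 (95% CI, 1.39–3.25; adjusted P = 0.000856, limma).

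Type XVIII collagen is a basement membrane multiplexin that carries heparan sulfate and releases endostatin. Col18a1 was at 5208, 5752 and 5689.9 normalized counts in KE and at 5674, 6308 and 6712 in NT. The groups overlapped. The log2FC was -0.17 (95% CI, -0.32 to -0.01; adjusted P = 0.0721, limma), and the adjusted P value was 0.0206 without NT replicate 1 and 0.0479 with quantile normalization. Its relative Col15a1 ranged from 8.32 to 30.0 in KE and from 12.5 to 41.3 in NT and was not called.

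Type VI collagen forms beaded filaments from Col6a1, Col6a2 and a long chain such as Col6a3. Col6a1 was at 449, 466 and 466 in KE and at 348, 447 and 452 in NT. NT replicate 1 was low and the other 5 cultures were alike (log2FC 0.16; 95% CI, -0.09 to 0.40; adjusted P = 0.261, limma). Col6a2 was at 99.8 to 128 in KE and 62.9 to 80.6 in NT, without overlap (log2FC 0.68, SE 0.17, adjusted P = 0.00734, limma). The ratio of Col6a1 to Col6a2 per kilobase was 5.28 to 6.56 in KE and 8.06 to 9.78 in NT. Col6a3 was at 1.39 to 26.9 in KE and 4.77 to 21.5 in NT, well under Col6a1, and was not called.

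Col26a1, of no assigned class here, was at 28.8, 37.3 and 28.6 in KE and at 73.0, 78.8 and 105 in NT. Every KE culture was lower (log2FC -1.41, SE 0.22, adjusted P = 0.000331, limma). Col8a1, a short-chain network collagen of vessel walls, was at 533, 463 and 591 in KE and at 500.2, 655 and 758 in NT. The groups overlapped (log2FC -0.26; 95% CI, -0.57 to 0.06; adjusted P = 0.162, limma), and without NT replicate 1 the log2FC was -0.42 (adjusted P = 0.0198). Its partner Col8a2 ranged from 9.12 to 16.5 in KE and from 9.61 to 47.9 in NT. Col7a1, which forms the anchoring fibrils of skin, was at 16.1, 12.5 and 112 in KE and 21.8 to 56.0 in NT, and KE replicate 3 was the high culture. Neither gene was called.

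The 11 collagens that were not tested were Col4a3, Col6a4, Col6a5, Col6a6, Col9a2, Col10a1, Col13a1, Col19a1, Col24a1, Col25a1 and Col28a1. Their highest value in any culture was 21.6, for Col9a2 in NT replicate 1. Just inside the minimum of 10 were Col17a1, with a mean of 10.7 over the 6 cultures, and Col6a3, with 12.1. Just outside were Col9a2, with 9.60, and Col4a3, with 7.76.

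Summed over the 44 genes, collagen normalized counts were 43458, 46604 and 48035 in KE and 39726, 43961 and 43798 in NT. NT replicates 2 and 3 lay just above KE replicate 1, so that the groups overlapped. The sum made up 0.141% to 0.157% of all normalized counts in KE and 0.130% to 0.144% in NT. The make-up of that sum differed more than its size. The type IV sum was 18303, 19251 and 20645 in KE and 14242, 15134 and 15215 in NT, a ratio of means of 1.31, and its share of all collagen counts was 41.3% to 43.0% in KE and 34.4% to 35.8% in NT. The fibrillar sum was 10693, 11569 and 11508 in KE and 11658, 13665 and 12599 in NT, a ratio of 0.891, and its share was 24.0% to 24.8% in KE and 28.8% to 31.1% in NT. Neither sum overlapped between groups, but the fibrillar sums nearly touched, at 11569 in KE replicate 2 and 11658 in NT replicate 1. The sum of the other types overlapped, at 14462 to 15881 in KE and 13827 to 15985 in NT. These sums weight genes by abundance, and Col4a1, Col18a1, Col4a5, Col4a6, Col23a1 and Col5a2 together held 68.6% of the collagen counts.

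**Figure D3:**
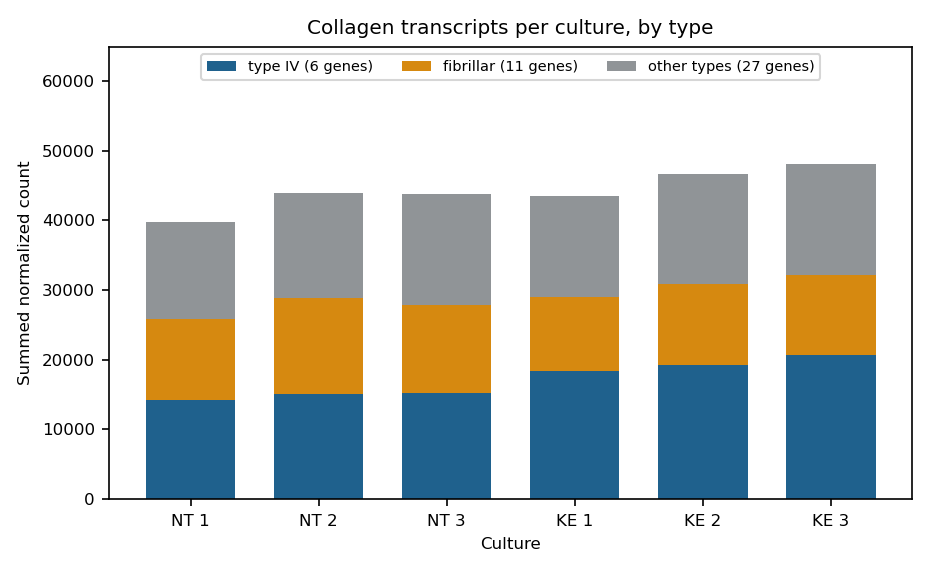
Summed normalized count of the collagens in each culture as stacked bars from 0, 1 bar per culture, split into the 6 type IV, 11 fibrillar and 27 other genes. The type IV segment is taller in all KE than in all NT cultures (ratio of means 1.31), the fibrillar segment is shorter (0.891) and the other types overlap.

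Levels of different genes were compared as normalized counts per kilobase of the canonical transcript. In NT astrocytes Col18a1 was highest, at 1114 ± 93.5, followed by Col4a1 at 884 ± 78.9, Col4a5 at 674 ± 62.8, Col5a2 at 607 ± 60.7, Col23a1 at 517 ± 16.7 and Col4a6 at 497 ± 31.9 (SD, n = 3 each). The NT ranges of Col4a5 and Col5a2 overlapped, as did those of Col23a1 and Col4a6, and the other neighbours in this part of the order were apart. Col5a1 at 402, Col11a1 at 307, Col12a1 at 261, Col4a2 at 173 and Col5a3 at 135 followed, each separate from the next. From Col5a3 through Col8a1, Col3a1, Col6a1 and Col16a1 to Col9a3, each gene's NT range overlapped that of the next. With the length of all annotated exons the order of NT means differs, with Col12a1 above Col11a1 and Col23a1 above Col4a5 and Col5a2. In KE astrocytes the order at the top was Col4a1 at 1094 ± 50.5, Col18a1 at 992 ± 53.2, Col23a1 at 978 ± 53.6, Col4a6 at 846 ± 57.5, Col4a5 at 775 ± 63.2 and Col5a2 at 539 ± 18.8. The KE ranges of Col18a1 and Col23a1 overlapped, as did those of Col4a6 and Col4a5. Col12a1 went from rank 9 in NT to rank 13 in KE. Of type I collagen, the leading fibrillar collagen of fibroblasts, Col1a2 stood at 71.0 per kilobase in NT and 90.7 in KE, and Col1a1 at 32.3 and 25.8.

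**Figure D4:**
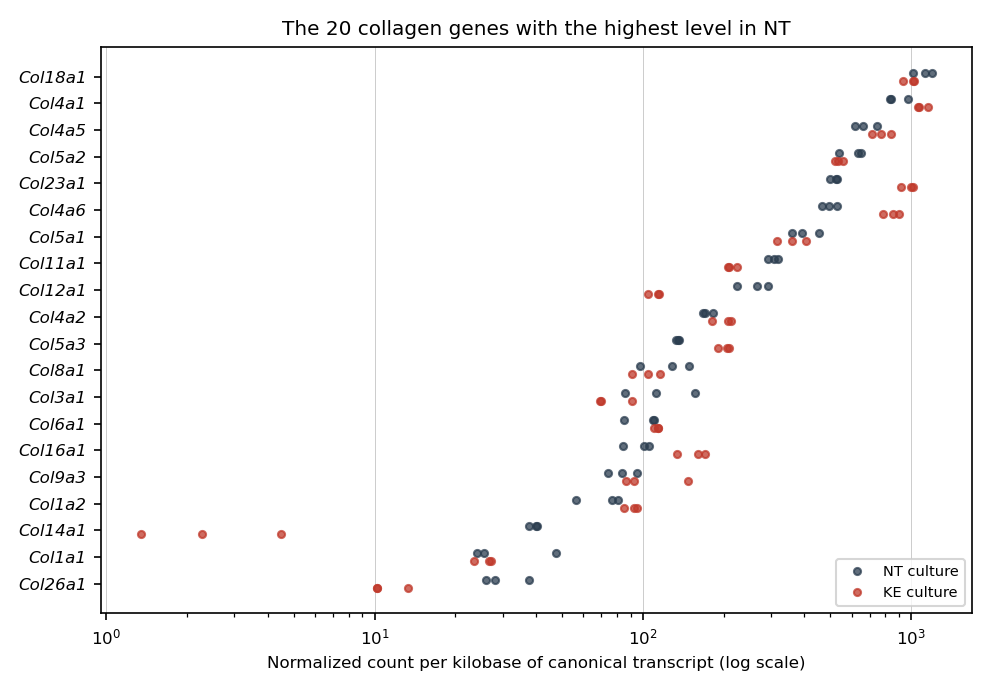
Normalized count per kilobase of the canonical transcript, on a log axis, of the 20 collagen genes with the highest NT mean, 1 point per culture, ordered by that mean. In NT Col18a1 leads with a mean of 1114, and in KE Col4a1 with 1094, followed by Col18a1, Col23a1 and Col4a6.

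Collagen chains are hydroxylated, glycosylated and folded in the endoplasmic reticulum, exported in large carriers, trimmed of their propeptides outside the cell and crosslinked. Over 9 lists of such genes and of collagen partners and receptors, 70 of 75 genes were tested, and 25 were higher and 22 lower in BRAF KE–transfected astrocytes, with a median log2FC of 0.04. These are 35.7% and 31.4% of the tested list genes, and 67.1% in either direction, against 25.3%, 26% and 51.3% of all tested genes. Of the intracellular steps, prolyl hydroxylation had 5 genes higher and 1 lower among 10 tested. The prolyl 3-hydroxylase P3h2 had a log2FC of 0.59 (adjusted P = 0.000177, limma), P3h4, a component of the lysyl hydroxylase complex, 0.53 and P4ha1, a catalytic subunit of prolyl 4-hydroxylase, 0.26, whereas P4ha3 had -0.38. Among 5 genes of lysyl hydroxylation and glycosylation, 3 were higher and 1 lower, with log2FC 0.70 for Plod3, 0.32 for Colgalt2 and 0.28 for Plod2. Plod3 was at 3554 to 4262 in KE and 2262 to 2419 in NT. Among 4 folding chaperones 3 were higher, with log2FC 0.78 for Fkbp7, 0.57 for Fkbp14 and 0.22 for Fkbp10. Serpinh1, the collagen-specific chaperone HSP47, was at 11384 to 13247 in KE and 11147 to 12837 in NT (log2FC 0.03, adjusted P = 0.749, limma). Procollagen export had 2 higher and 1 lower of 7, with log2FC 0.24 for the secretory pathway regulator Creb3l1, 0.16 for the coat protein Sec23a and -0.20 for the cargo receptor Mia2. The calls of P4ha3, Fkbp10, Creb3l1, Sec23a and Mia2 were lost under 3 or more of the alternatives.

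Propeptide processing had 1 gene higher (12.5%) and 4 lower (50%) among 8 tested, against 25.3% and 26% of all tested genes. Bmp1, the procollagen C-proteinase, was at 7692 to 8131 in KE and 5379 to 5714 in NT (log2FC 0.54, adjusted P = 1.13e-05, limma). The lower genes included the C-proteinase enhancer Pcolce2 (log2FC -0.94) and the procollagen N-proteinase Adamts3 (log2FC -0.82). All 5 lysyl oxidases, which crosslink collagen and elastin, were called, 3 higher and 2 lower, where 51.3% of all tested genes were called. The call of Loxl2 (log2FC -0.37, adjusted P = 0.0478, limma), whose groups overlapped, was lost with quantile normalization, without the variance trend and on leaving out any culture except NT replicate 1. Lox was at 358, 284 and 328 in KE and at 3064, 3205 and 1492 in NT. Every KE culture was far lower, although NT replicate 3 was less than the other NT cultures. The log2FC of Lox was -2.92 (SE 0.23, adjusted P = 1.99e-06, limma). Its relatives Loxl3 and Loxl1 had log2FC 0.81 and 0.70, and the groups did not overlap for either.

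Of 8 tested fibril-associated proteins, 2 were higher and 5 were lower, and 1 was higher without the variance trend or without KE replicate 2, KE replicate 3, NT replicate 2 or NT replicate 3. Thbs2, a matricellular thrombospondin, was at 12737 to 13430 in KE and 5138 to 5549 in NT (log2FC 1.30, adjusted P = 2.27e-08, limma). Fn1, fibronectin, was at 4940 to 5767 in KE and 10682 to 14648 in NT (log2FC -1.16), and the small proteoglycan Fmod had a log2FC of -1.36. Of 15 tested basement membrane partners of type IV collagen, 4 (26.7%) were higher and 5 (33.3%) lower, near the 25.3% and 26% of all tested genes. The laminin chain Lamb1 had a log2FC of -0.95 and the proteoglycan Agrn 0.56. Agrn was at 17014 to 19642 in KE and 11892 to 12986 in NT, and Lamb1 at 232 to 296 in KE and 467 to 571 in NT. Of 8 tested collagen receptors, 2 were higher and 3 lower. The leukocyte receptor Lair1 had a log2FC of -3.15, the endocytic receptor Mrc2 -0.91 and the integrin chain Itga2 0.75. The shared integrin chain Itgb1 was at 20447 to 22402 in KE and 22560 to 24964 in NT, with a log2FC of -0.15 that did not pass the threshold (95% CI, -0.29 to -0.01; adjusted P = 0.0673, limma), and that was called with quantile normalization and without NT replicate 2.

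**Figure D5:**
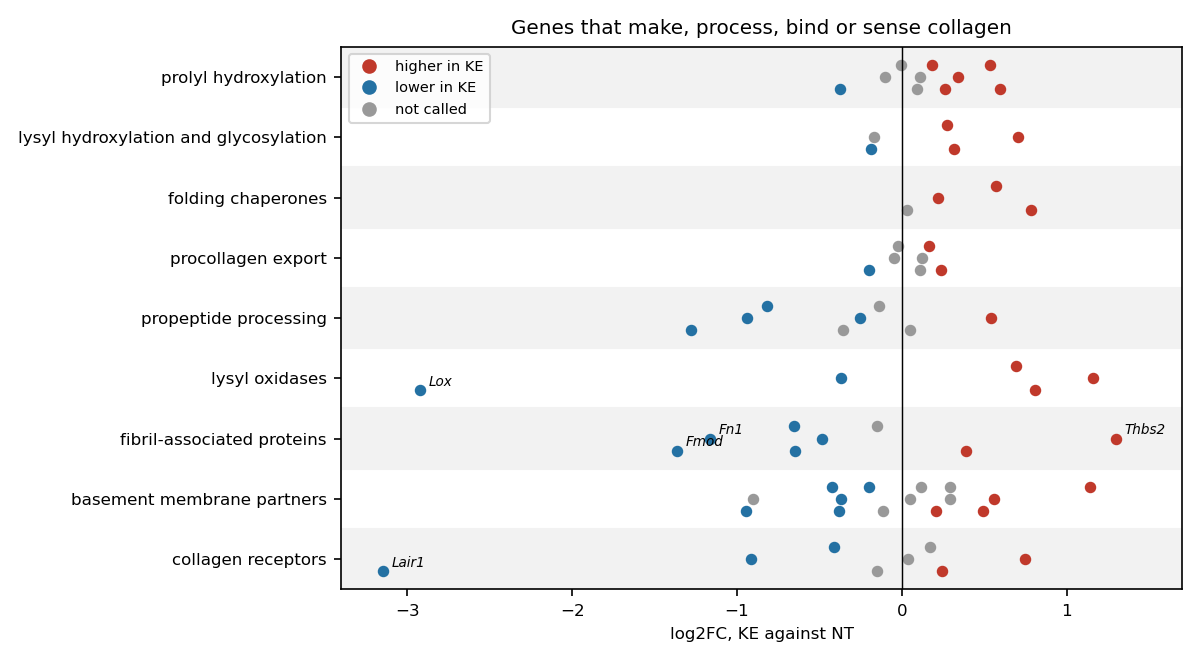
Log2FC, KE minus NT on the log2(normalized count + 1) scale, of the tested genes of 9 lists of collagen biosynthesis, processing, partner and receptor genes, 1 point per gene, with genes called higher in red, called lower in blue and not called in grey. Lair1 at -3.15 and Lox at -2.92 are the lowest points and Thbs2 at 1.30 is the highest.

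Markers of other cell types that make collagen were also measured, and their counts are to be read against the 25.3% and 26% of all tested genes that were higher and lower. Fibroblast and meningeal markers summed to 8589 to 9980 in KE and 7688 to 8529 in NT, with 3 higher and 4 lower of 8 tested. The direction of this sum rests on a single gene, Islr, at 5630 to 6692 in KE and 3280 to 4122 in NT. Summed without Islr, the list was lower in KE, and the groups did not overlap. Islr was among the higher and Dcn, Ogn and Pdgfra among the lower, and Slc6a13 and Mfap5 had means of 8.06 or less in both groups. Mural markers summed to 4807 to 5127 in KE and 5722 to 8152 in NT, with 2 higher and 2 lower of 6 tested. The contractile genes Acta2 and Tagln had log2FC -1.34 and -1.17, and the contractile gene Myh11 had 1.06, but Myh11 reached the minimum for a test only through the KE cultures, with means of 14.3 in KE and 6.39 in NT. Rgs5 had 0.79, and the pericyte genes Vtn, Kcnj8 and Abcc9 had means of 2.34 or less. Endothelial markers summed to 255 to 308 in KE and 343 to 498 in NT, with 2 lower of 3 tested, and Cldn5 was listed at 0 in 5 of the 6 cultures. Oligodendrocyte lineage markers summed to 27105 to 31875 in KE and 35921 to 36217 in NT, with 7 of 7 tested lower, and neuronal markers to 1859 to 2053 in KE and 1661 to 2148 in NT, with 1 higher and 1 lower of 6 tested. Astrocyte markers summed to 194523 to 200354 in KE and 142105 to 150693 in NT, with 7 higher and 1 lower of 10 tested. The part of these cell types, and of the microglial markers, in the collagen results was not tested.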

How the data were processed

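RNA-seq of 6 cultures of mouse cortical astrocytes was analysed, 3 transfected with BRAF KE and 3 non-transfected, grouped by the labels. The authors deposited 1 table of normalized counts, a signal per gene and culture made by dividing Salmon gene counts by DESeq2 size factors. The study's methods name TrimGalore, STAR, GRCm39 and Gencode models, and mention a batch adjustment without naming batches. Size factors remove depth. Whole reads were not recovered, since only 74.7% to 77.6% of the low values came within 0.1 of whole multiples of a read, and no count model was used. The moderated test of limma 3.58.1 (R 4.3.3) with a variance trend was run on log2 of the deposited value plus 1, with group as the factor, over the 15280 genes whose mean reached 10. P values were two-sided and adjusted by Benjamini-Hochberg over these genes, with calls under 0.05. The pseudocount understates changes of low genes.

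Collagens were classed by assembly type. Per-culture values are given for tested collagens with a mean of at least 100 and for called ones with a smaller mean and an absolute log2FC of at least 1. Of each pathway list, up to 3 called genes with the largest absolute log2FC and a mean of at least 100 are named, besides Serpinh1, P4ha1, Plod2, Lox, Bmp1 and Itgb1, and 1 gene that the rule names is not reported here. The members and lists were chosen with earlier results of these data known. Coordinates, transcript lengths and upstream sequences are from GRCm39 with Gencode vM39, in which 54749 of 55357 gene identifiers were found. Alternatives were other pseudocounts, filters and scalings, limma without the trend, the replicate number as a block, and leaving out each culture. The length of all annotated exons and the leaving out of cultures for the class sums were added after the data were seen.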

Additional observations from a re-analysis of the deposited data

How the results depend on the processing

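Of the 15 collagens called, 11 kept their call in every one of the 14 alternatives that tested them, and 4 lost it in at least 1. Of the 18 not called, 11 stayed so throughout and 7 were called in at least 1. Over 454 comparisons of a tested collagen's log2FC, 410 kept direction and side of the threshold, 19 lost and 14 gained a call, and 11 changed sign, all without a call. Leaving out 1 culture gave 7 to 10 collagens higher and 5 to 8 lower, with fibrillar genes 1 to 2 higher and 2 to 3 lower, type IV genes 2 to 4 higher, and other types 4 to 5 higher and 3 to 5 lower. The highest count of lower genes of other types came without NT replicate 1, and the single higher fibrillar gene without KE replicate 1, KE replicate 3 or NT replicate 1. Limma without the trend gave 1 fibrillar gene higher and 1 lower, and the cause was not tested. Small counts of called pathway genes, such as procollagen export genes in either direction and lower lysyl oxidases, also moved by over 1.5 times.

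No label says whether the replicate numbers pair the cultures, and the main fit did not pair them. The correlations of same-numbered deviations were 0.06, 0.07 and 0.07, and those of differently numbered ones were -0.05 to -0.01. Each culture thus correlated best with its own number, a hint from the data only. Correlations this small cannot settle whether the cultures were paired. With the replicate block, 10 collagens were higher and 9 lower, with 5 fibrillar genes lower (Col5a1 and Col5a2 added), Col4a5 and Col18a1 were also called, as was Itgb1, and Loxl2 was not.

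The sign changes, none called, were as follows. With quantile normalization the log2FC was 0.013 for Col9a1 and -0.0098 for Serpinh1. Leaving out 1 culture gave log2FC ranges of -0.96 to 0.31 for Col11a2 (0.13 without KE replicate 1), -0.43 to 0.055 for Col1a1, -0.027 to 0.30 for Col27a1, -1.69 to 0.087 for Col6a3, -1.08 to 0.45 for Col7a1, -1.07 to 0.033 for Col8a2, -0.22 to 0.0014 for Col9a1 and -0.026 to 0.084 for Serpinh1, the chaperone.

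Leaving out 1 culture kept the KE to NT ratio of class sums at 1.26 to 1.34 for type IV, 0.857 to 0.928 for fibrillar and 0.987 to 1.06 for other types. Levels between genes depend on the length used. With all annotated exons in place of the canonical transcript, the NT ratio per kilobase was 0.960 in place of 0.450 for Col1a1 to Col1a2, 4.81 in place of 5.10 for Col4a1 to Col4a2, 0.877 in place of 0.739 for Col4a6 to Col4a5 and 11.2 in place of 8.64 for Col6a1 to Col6a2, because the lengths differ. Genes under about 50 normalized counts, such as Col17a1, Col7a1 and Col6a3, are limited by depth and by the spread between 3 cultures.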
